A study of Mus musculus with 23 samples.

Results

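The S100 genes encode small calcium-binding proteins of the EF-hand type. The 10 genes described here, S100a3, S100a4, S100a6, S100a8, S100a9, S100a10, S100a11, S100a14, S100a16 and S100b, were taken by their symbols from the array's annotation. They are 10 of 19938 mouse genes tested, and where a gene had several rows the row with the highest mean over all arrays stood for it. All 10 were measured.

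Ear pinna RNA came from female mice 4 weeks old of 2 genotypes. Wild type mice were C57BL/6J with the genotype Rhbdf2+/+, and mutant mice were of the strain B6.Cg-Rhbdf2cub/J with the genotype Rhbdf2cub/cub, called cub below. Rhbdf2 encodes iRhom2, a membrane protein that guides the sheddase ADAM17, which releases EGF receptor ligands and tumour necrosis factor, and cub mice have a defective coat. Ears were unwounded (0 h) or had been holed with a 2-mm punch 15 min, 2 h or 24 h before, and the wounded tissue was the 1-mm rim that a 3-mm biopsy punch took around the hole. How the unwounded tissue was cut is not described separately. Each of the 8 genotype-by-time groups held 3 arrays, except cub at 15 min with 2, which gave 12 wild type and 11 cub arrays. The design names 3 mice per time point and the sample titles call the arrays biological replicates.

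S100 proteins change shape when they bind calcium and then dock onto target proteins. Inside cells they meet annexins, the cytoskeleton and the cornified envelope of the epidermis, the cross-linked protein shell of dead surface keratinocytes. Some are also released by damaged or activated cells and act on receptors such as TLR4 and RAGE, and so are called alarmins. S100A8 and S100A9 pair as calprotectin, an abundant cytosolic protein of neutrophils that injured keratinocytes make as well. Most S100 genes of the mouse sit side by side on chromosome 3.

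Start-site sequences are shown for the genes with the largest changes, S100a8 and S100a9, which moved together, for S100a11, a cornified-envelope member with a small rise, and for S100b, which fell. Each is the 200 bases before the annotated start, read 5′ to 3′ on the gene's own strand from RefSeq windows of GRCm38.p6. S100a8 lies at chr3:90668871-90669070 on the plus strand, S100a9 at chr3:90695722-90695921 on the minus strand, S100a11 at chr3:93520296-93520495 on the plus strand and S100b at chr10:76253636-76253835 on the plus strand. Capitals mark the letters of 4 motifs searched on both strands.
S100a8: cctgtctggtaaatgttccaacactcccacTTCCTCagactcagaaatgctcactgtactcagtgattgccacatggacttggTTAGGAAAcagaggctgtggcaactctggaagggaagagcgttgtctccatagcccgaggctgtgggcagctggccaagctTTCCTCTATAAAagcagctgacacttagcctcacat
S100a9: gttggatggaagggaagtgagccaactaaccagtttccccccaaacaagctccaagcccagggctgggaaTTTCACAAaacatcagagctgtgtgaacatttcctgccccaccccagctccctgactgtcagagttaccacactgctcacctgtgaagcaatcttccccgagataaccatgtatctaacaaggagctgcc
S100a11: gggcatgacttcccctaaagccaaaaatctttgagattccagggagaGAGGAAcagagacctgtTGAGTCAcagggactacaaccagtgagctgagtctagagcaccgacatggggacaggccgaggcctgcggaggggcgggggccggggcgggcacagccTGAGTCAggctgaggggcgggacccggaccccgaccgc
S100b: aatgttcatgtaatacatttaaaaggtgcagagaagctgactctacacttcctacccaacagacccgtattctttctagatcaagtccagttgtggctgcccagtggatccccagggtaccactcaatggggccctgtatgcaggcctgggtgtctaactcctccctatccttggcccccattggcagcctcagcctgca

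The search covered windows of 300 bases, 250 before to 50 after the start. The TATA box, which places the start of many inducible genes, was searched as TATAAA. The site of AP-1, a Fos and Jun factor of stressed epidermis, was searched as TGANTCA. The site of C/EBP factors, which act in myeloid cells and keratinocytes, was searched as TTNNGNAA. The core site of PU.1, a factor of myeloid cells, was searched as GAGGAA. Of 32851 mouse promoter windows, 13.6% held TATAAA, 7.81% the AP-1 letters, 40.7% the C/EBP letters and 28.3% the PU.1 letters. S100a8 held TATAAA 30 bases before its start, the C/EBP letters 117 bases before it and the PU.1 letters 170 and 36 bases before it, where they adjoin TATAAA. S100a9 held the C/EBP letters 130 bases before its start and again 236 bases before it, outside the stretch printed, and TATAAA from the first base after the annotated start. S100a11 held the AP-1 letters 136 and 38 bases before its start and the PU.1 letters at 153 bases. The S100b window held none of the 4. Windows were found for 8 of the 10 genes, and of these 8, 4 held TATAAA, 2 the AP-1 letters, 3 the C/EBP letters and 5 the PU.1 letters in at least 1 window. S100a3 and S100a16 have several windows, 12 in all for the 8 genes, so these counts by gene are not set against the shares by window. A match is a description of letters, not evidence of a factor at work.

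Values are the deposited log2 intensities, which ran from 2.92 to 13.84, with array medians between 6.37 and 6.46. Differences are on this log2 scale, where 1 unit is a doubling, with the standard error of a limma fit over all arrays, and a gene is called changed when limma's p, adjusted by Benjamini-Hochberg over all 19938 genes, is under 0.05. The number of arrays limits the precision. No pair of arrays held identical values. Rhbdf2 itself stood at 8.70 ± 0.06 (SD, n = 3) in unwounded wild type ears and 9.11 ± 0.04 (n = 3) in unwounded cub ears. At 15 min it was 8.78 ± 0.06 in wild type and 9.12 ± 0.11 (n = 2) in cub, at 2 h 9.0 ± 0.04 and 9.0 ± 0.12, and at 24 h 8.81 ± 0.22 and 8.32 ± 0.13. Whether its probes lie inside the mutated part of the gene was not tested, so these levels do not check the genotype labels. The tissue held high signal of the defining markers of skin: the 7 basal keratinocyte markers averaged 11.30 to 11.70 over the arrays and the 11 fibroblast markers 10.49 to 11.27.

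S100a8 and S100a9 rose after wounding in both genotypes, moderately at 2 h and by far more at 24 h. At 24 h S100a8 was 48.4-fold and S100a9 32.7-fold above unwounded ears in wild type mice, and 52.7-fold and 45.9-fold above in cub mice.

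In wild type ears S100a8 read 5.65, 5.94 and 5.82 unwounded, 7.02, 6.55 and 6.18 at 15 min, 7.90, 7.24 and 6.93 at 2 h and 11.78, 11.31 and 11.11 at 24 h. In cub ears it read 5.54, 6.07 and 5.98 unwounded, 6.08 and 6.47 at 15 min, 8.06, 7.89 and 8.40 at 2 h and 11.45, 11.61 and 11.69 at 24 h. In both genotypes the 2 h arrays lay above every unwounded array, and the 24 h arrays above every earlier one. Between 0 h and 2 h, 25.2% of all genes in wild type and 26.6% in cub had no overlap of arrays. Between 0 h and 24 h these shares were 48.9% and 50.5%. The 2 h rise of S100a8 was 1.55 ± 0.23 in wild type (adjusted p = 8.48e-05) and 2.25 ± 0.23 in cub (adjusted p = 4.44e-07). The 24 h rise was 5.60 ± 0.23 (adjusted p = 3.83e-14) and 5.72 ± 0.23 (adjusted p = 1.64e-14).

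S100a9, whose protein is the other chain of calprotectin, followed the same course. Wild type ears gave 5.90, 6.32 and 6.03 unwounded, 7.16, 6.16 and 6.03 at 15 min, 7.69, 7.29 and 7.16 at 2 h and 11.37, 10.98 and 11 at 24 h. Cub ears gave 5.79, 5.93 and 6.04 unwounded, 6.32 and 6.27 at 15 min, 7.95, 7.81 and 8.23 at 2 h and 11.22, 11.47 and 11.63 at 24 h. One wild type array at 15 min, replicate 1, stood apart from the other 2 of its group, which lay among the unwounded arrays. The S100a9 rise at 2 h was 1.30 ± 0.21 in wild type (adjusted p = 0.000302) and 2.08 ± 0.21 in cub (adjusted p = 5.06e-07). At 24 h the rise was 5.03 ± 0.21 (adjusted p = 6.19e-14) and 5.52 ± 0.21 (adjusted p = 9.78e-15).

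**Figure D1:**
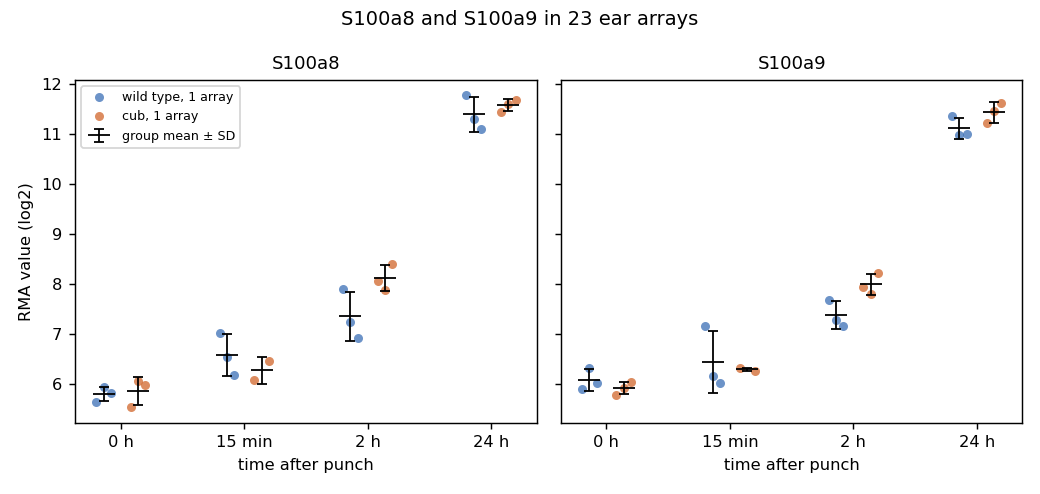
Deposited log2 values of S100a8 and S100a9 on every array, by time after the ear punch and genotype, each point 1 array and each bar the group mean ± SD (3 arrays a group, 2 for cub at 15 min). All 24 h arrays lie between 10.98 and 11.78, and all unwounded arrays between 5.54 and 6.32.

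Between 2 h and 24 h the climb of S100a8 was 4.04 ± 0.23 in wild type and 3.47 ± 0.23 in cub, and that of S100a9 3.74 ± 0.21 and 3.44 ± 0.21. At 15 min neither gene passed the test in either genotype. S100a8 in wild type came nearest, at 0.78 ± 0.23 above unwounded ears (unadjusted p = 0.00238, adjusted p = 0.224), and its 15 min arrays all lay above the unwounded ones. Arrays of these 2 groups did not overlap for 16.8% of all genes. Over the 23 arrays S100a8 and S100a9 correlated with r = 0.997, and the deviations of the arrays from their own group means correlated with r = 0.828. These r values describe 23 arrays that share their time course.

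Markers of neutrophils, the cell type with the most calprotectin, rose over the same hours. Of 20 listed neutrophil markers 18 were tested, and 8 were higher at 2 h in each genotype, 13 at 24 h in wild type and 15 at 24 h in cub, with none lower in these 4 comparisons. Their mean level ran from 5.77 to 5.83 over the unwounded arrays, 6.10 to 6.36 in wild type and 6.50 to 6.61 in cub at 2 h, and 7.82 to 8.42 at 24 h. Over all genes, 3.98% were higher at 2 h in wild type and 7.66% in cub, and 20.5% and 21.1% at 24 h. Among the defining markers, Cxcr2, the neutrophil chemokine receptor, rose at 24 h by 3.64 ± 0.21 in wild type and 4.64 ± 0.21 in cub, and Ly6g, a surface antigen of mature mouse neutrophils, rose by 1.90 ± 0.25 and 2.47 ± 0.25. Ly6g did not pass at 2 h, when S100a8 had (0.12 ± 0.25, adjusted p = 0.885, in wild type and 0.40 ± 0.25, adjusted p = 0.363, in cub). Its group means at 0 h and 2 h were low, 4.22 to 4.62, under every array median. Cxcr2 means went from 6.83 unwounded to 7.75 at 2 h in wild type and from 6.24 to 8.09 in cub. Mpo, Elane and Camp, granule genes made in the bone marrow, did not pass at 24 h in either genotype and lay between -0.08 and 0.05. Granule genes did not all stay level, since Ltf and Ngp were among the markers called higher in cub at 24 h. From unwounded to 24 h the cub mean of Ltf went from 4.94 to 5.15 and that of Ngp from 4.42 to 4.98. These means were low, under every array median. The 6 wound-edge keratinocyte markers tested of 7, genes such as Krt6a and Krt16 of migrating epidermis, all rose at 24 h in both genotypes, Krt6a by 4.55 ± 0.14 and 4.69 ± 0.14. Wild type replicate 1 at 15 min, the array with the high S100a9, also had the highest mean of these markers in its group, 9.39 against 7.58 and 7.92. The part of either cell type in the S100a8 and S100a9 signal was not tested. In tissue RNA, more cells of a type and more RNA per cell cannot be told apart.

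**Figure D2:**
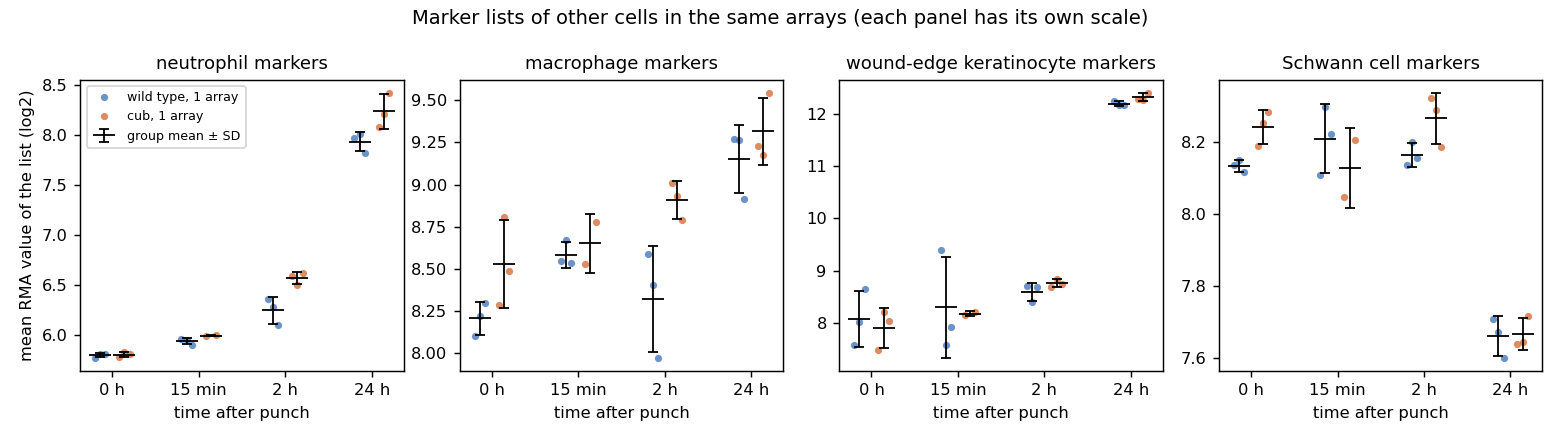
Mean log2 value of the neutrophil, macrophage, wound-edge keratinocyte and Schwann cell marker lists on every array, by time after the punch and genotype, with bars for the group mean ± SD and a scale for each panel. The neutrophil list lies at 5.77 to 5.83 on the unwounded arrays and 7.82 to 8.42 on the 24 h arrays, and the wound-edge keratinocyte list is above 12 only at 24 h.

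Members with roles inside epithelial and stromal cells, S100a6, S100a10, S100a11, S100a14, S100a16 and S100a4, changed by little. The first 5 rose at 24 h in both genotypes by 0.16 to 0.78, while S100a4 passed in cub alone. S100a11 is a substrate of the cornified envelope that also binds annexin A1. It read 12.30, 12.46 and 12.46 in unwounded wild type ears and 12.81, 12.76 and 12.73 at 24 h. Cub ears read 12.41, 12.44 and 12.39 unwounded and 12.74, 12.80 and 12.84 at 24 h. The groups did not overlap, and the rise was 0.36 ± 0.05 (adjusted p = 3.43e-06) in wild type and 0.38 ± 0.05 (adjusted p = 1.30e-06) in cub. Arrays at 0 h and 24 h did not overlap for 48.9% of all genes in wild type and 50.5% in cub. These shares also belong beside each lack of overlap of these times given below. S100a11 was the only member with a second row on the array, which gave 0.37 and 0.39, and probes of either row may not separate near-identical copies of the gene.

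S100a10 pairs with annexin A2 at the cell membrane. Its unwounded wild type arrays read 12.29, 12.48 and 12.37 and the 24 h ones 12.73, 12.57 and 12.56, with no overlap. In cub the values were 12.37, 12.43 and 12.34 unwounded and 12.65, 12.63 and 12.67 at 24 h. The rise was 0.24 ± 0.06 (adjusted p = 0.00310) in wild type and 0.27 ± 0.06 (adjusted p = 0.000989) in cub. Against the 2 h arrays, S100a10 passed at 24 h in wild type (0.19 ± 0.06, adjusted p = 0.0189), not without wild type replicate 1 of 24 h (0.126) or replicate 3 of 2 h (0.0588). In cub the same step was 0.13 ± 0.06 (adjusted p = 0.115), and it passed with each array centred on its median (0.0347) or quantile normalized (0.0260).

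S100a6, calcyclin, is a protein of dividing cells that binds Cacybp. Wild type ears read 10.77, 11.13 and 11.13 unwounded and 11.59, 11.34 and 11.35 at 24 h. Cub ears read 10.71, 10.76 and 10.80 unwounded and 11.55, 11.46 and 11.60 at 24 h. All 24 h arrays lay above all unwounded ones, and replicate 1 of the unwounded wild type arrays stood below the other 2. The rise was 0.42 ± 0.08 in wild type (adjusted p = 0.000276) and 0.78 ± 0.08 in cub (adjusted p = 7.40e-08). The difference between these rises, 0.36 ± 0.12, did not pass over all genes (unadjusted p = 0.00574, adjusted p = 0.175). Without wild type replicate 1 of 0 h it was 0.48 with adjusted p = 0.0225, and the wild type fall from 0 h to 2 h, -0.19 ± 0.08 (adjusted p = 0.185), became -0.31 (adjusted p = 0.0136).

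S100a16, a broadly expressed member, read 11.18, 11.14 and 11.20 in unwounded wild type ears and 11.46, 11.50 and 11.53 at 24 h. In cub it read 11.20, 11.20 and 11.19 unwounded and 11.61, 11.54 and 11.58 at 24 h. The rise was 0.32 ± 0.05 (adjusted p = 1.10e-05) and 0.38 ± 0.05 (adjusted p = 1.04e-06), with no overlap in either genotype. S100a14, a member of epithelial cells, was the one gene of the 10 called lower at 2 h and higher at 24 h in both genotypes. The 2 h arrays of S100a16 also lay under its unwounded ones, at 11.12, 11.08 and 10.98 in wild type (-0.11 ± 0.05, adjusted p = 0.185) and 11.18, 11.10 and 11.14 in cub (-0.06 ± 0.05, adjusted p = 0.550), without passing. Arrays at 0 h and 2 h did not overlap for 25.2% of all genes in wild type and 26.6% in cub. S100a14 in wild type read 10.67, 10.77 and 10.67 unwounded, 10.47, 10.44 and 10.45 at 2 h and 10.92, 10.83 and 10.90 at 24 h. In cub it read 10.81, 10.79 and 10.72 unwounded, 10.53, 10.43 and 10.45 at 2 h and 11.01, 10.90 and 10.90 at 24 h. The 2 h arrays lay under, and the 24 h arrays over, all unwounded arrays of their genotype. The 2 h fall was -0.25 ± 0.06 in wild type (adjusted p = 0.00724; 0.0509 without wild type replicate 2 of 0 h) and -0.30 ± 0.06 in cub (adjusted p = 0.000889).

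From 2 h to 24 h S100a14 climbed by 0.43 ± 0.06 in wild type (adjusted p = 1.97e-06) and 0.47 ± 0.06 in cub (adjusted p = 5.81e-07). Its 24 h level exceeded the unwounded one by 0.18 ± 0.06 in wild type (adjusted p = 0.0126) and 0.16 ± 0.06 in cub (adjusted p = 0.0211). The first call was lost without wild type replicate 1 of 0 h (0.0506). The second was lost without cub replicate 1 of 24 h (0.112), without cub replicate 3 of 0 h (0.0916), with quantile normalization (0.0682) and with the compared arrays alone (0.0629).

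S100a4 binds nonmuscle myosin and is a marker of fibroblasts and of some leukocytes. It read 10.78, 10.85 and 11.04 in unwounded wild type ears and 11.28, 10.96 and 10.79 at 24 h, and the groups overlapped (0.12 ± 0.09, adjusted p = 0.326). In cub it read 10.68, 10.70 and 10.63 unwounded and 10.82, 10.88 and 10.98 at 24 h, without overlap (0.22 ± 0.09, adjusted p = 0.0472). The wild type value hung on single arrays: it was -0.015 (adjusted p = 0.913) without replicate 1 of 24 h, and 0.23 (adjusted p = 0.0403) without replicate 3. The cub call was lost with quantile normalization (adjusted p = 0.165) and without either of cub replicates 2 and 3 of 24 h or any of the 3 unwounded cub arrays (0.0677 to 0.169). The 2 h arrays of S100a4 read 10.75, 10.79 and 10.68 in wild type, and the step from there to 24 h was 0.27 ± 0.09 (adjusted p = 0.0186) with overlapping arrays. That step did not pass without wild type replicate 1 of 24 h (0.14, adjusted p = 0.192), without replicate 3 of 2 h (0.24, adjusted p = 0.0695), with quantile normalization (0.0534) or with the compared arrays alone (0.0873).

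Marker lists of the cells that hold these members moved in mixed directions at 24 h. Over all genes, 20.5% were higher and 22.4% lower at that time in wild type, and 21.1% and 24.9% in cub. Of the 7 basal keratinocyte markers, 3 were higher and 1 lower in wild type and 3 and 3 in cub, and of the 7 suprabasal ones tested, 2 were higher and 4 lower in wild type and none higher and 6 lower in cub. Of 11 fibroblast markers 2 were higher in each genotype and 6 and 7 lower, and of 12 macrophage markers 7 were higher in wild type, and 6 higher and 1 lower in cub. Of 9 dendritic and Langerhans cell markers 3 were higher and 2 lower in wild type and 3 and 3 in cub. Their part in the changes of S100a4, S100a6, S100a10, S100a11, S100a14 and S100a16 was not tested.

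**Figure D3:**
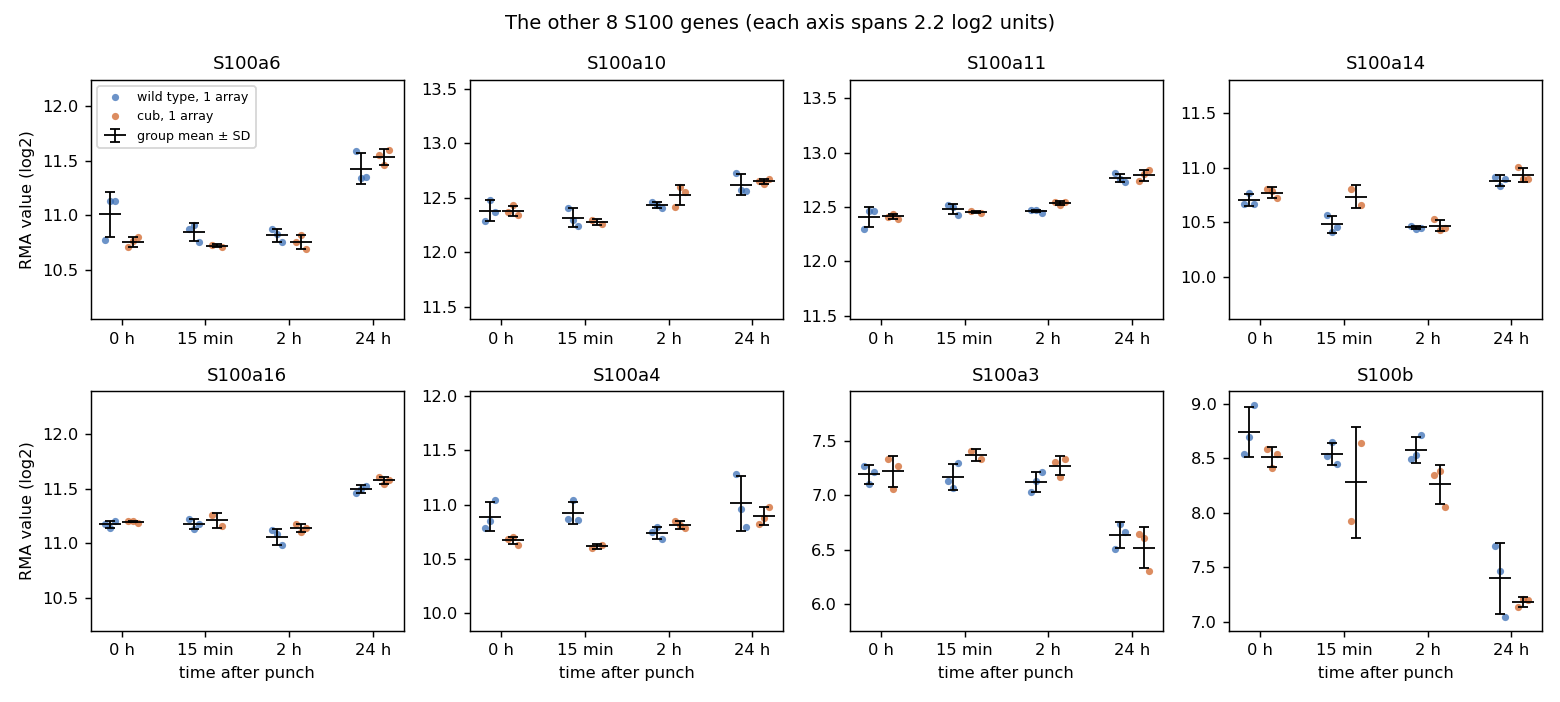
Deposited log2 values of the other 8 S100 genes on every array, by time after the punch and genotype, each point 1 array and each bar the group mean ± SD, with axes of equal span. S100b and S100a3 are lowest at 24 h, S100a14 dips at 2 h, and S100a6, S100a11 and S100a16 are highest at 24 h.

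S100b and S100a3 were the 2 members that fell at 24 h, in both genotypes. S100b is known from Schwann cells, chondrocytes, adipocytes and melanocytes, all present in the ear. It read 8.54, 8.70 and 8.99 in unwounded wild type ears and 7.69, 7.46 and 7.04 at 24 h. Cub ears read 8.59, 8.41 and 8.54 unwounded and 7.13, 7.21 and 7.20 at 24 h. The groups did not overlap, as for 48.9% of all genes in wild type and 50.5% in cub. S100b fell by -1.35 ± 0.16 in wild type (2.54-fold lower, adjusted p = 3.35e-07) and by -1.33 ± 0.16 in cub (2.52-fold lower, adjusted p = 2.92e-07). At 15 min the 2 cub arrays differed, 7.92 in replicate 2 and 8.64 in replicate 3, and replicate 2 also had the lower mean of the 11 cartilage markers, 7.55 against 7.97.

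Lists of the cell types that carry S100b fell at 24 h too. Of 8 Schwann cell markers tested of 11 listed, 6 were lower in each genotype and none higher, with Cdh19, a cadherin of Schwann cell precursors, at -1.65 ± 0.13 in wild type and -1.69 ± 0.13 in cub. Sox10, the factor that defines the lineage, did not pass (-0.12 ± 0.08, adjusted p = 0.276, and -0.12 ± 0.08, adjusted p = 0.281). Of 11 cartilage markers 9 were lower in wild type and 6 in cub, and of 8 adipocyte markers tested of 9, 7 and 8 were lower, with none higher in either list. Over all genes, 22.4% were lower and 20.5% higher at 24 h in wild type, and 24.9% and 21.1% in cub. The mean of the Schwann cell list ran from 8.12 to 8.28 over the unwounded arrays and 7.60 to 7.72 at 24 h. Of the 6 melanocyte markers, 1 was higher in each genotype at 24 h and none lower. The part of these cell types in the S100b fall was not tested.

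S100a3 is a cysteine-rich member of the hair cuticle. Wild type ears read 7.27, 7.10 and 7.21 unwounded and 6.51, 6.74 and 6.66 at 24 h, and cub ears 7.33, 7.06 and 7.27 unwounded and 6.64, 6.61 and 6.30 at 24 h. No 24 h array reached an unwounded one. S100a3 fell by -0.56 ± 0.09 in wild type (adjusted p = 3.22e-05) and -0.70 ± 0.09 in cub (adjusted p = 1.27e-06). Of 12 hair shaft markers tested of 14 listed, 1 was lower at 24 h in wild type and 3 in cub, with none higher. The share of all genes called lower was 22.4% in wild type and 24.9% in cub. Selenbp1 was lower in both, by -1.31 ± 0.09 and -1.38 ± 0.09. Krt35 was the only hair keratin among those tested to pass, in cub (-0.20 ± 0.08, adjusted p = 0.0367). The list's mean ran from 6.13 to 6.33 over the unwounded arrays and 6.05 to 6.17 at 24 h, and its part in the S100a3 fall was not tested.

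In counts, 9 of the 10 genes were called at 24 h against unwounded ears in wild type, 7 higher and 2 lower, where 42.8% of all genes tested were called, 20.5% higher and 22.4% lower. In cub all 10 were called, 8 higher and 2 lower, where the background was 46%, 21.1% higher and 24.9% lower. The median difference of the 10 was 0.28 in wild type and 0.32 in cub, beside -0.02 and -0.0033 for all genes. Arrays of the 2 times did not overlap for 48.9% of all genes in wild type and 50.5% in cub. At 2 h, S100a8 and S100a9 were higher and S100a14 lower in each genotype, beside 7.97% of all genes in wild type, 3.98% higher and 4% lower, and 11.9% in cub, 7.66% higher and 4.28% lower. From 2 h to 24 h all 10 were called in wild type, 8 higher and 2 lower (background 41.5%, with 21.1% higher and 20.4% lower), and 8 in cub, 6 higher and 2 lower (background 42.2%, with 18.8% higher and 23.4% lower). At 15 min none of the 10 was called in either genotype, where limma called 0.0351% of all genes in wild type, all of them higher, and 0.0251% in cub, 0.0201% higher and 0.00502% lower. At an unadjusted p under 0.05, S100a8 and S100a14 in wild type would have counted there. The share of all genes at that looser threshold is not given here, so this is not set against the shares above. Comparisons of one genotype share their 0 h, 2 h or 24 h arrays, so these counts are not independent of each other.

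**Figure D4:**
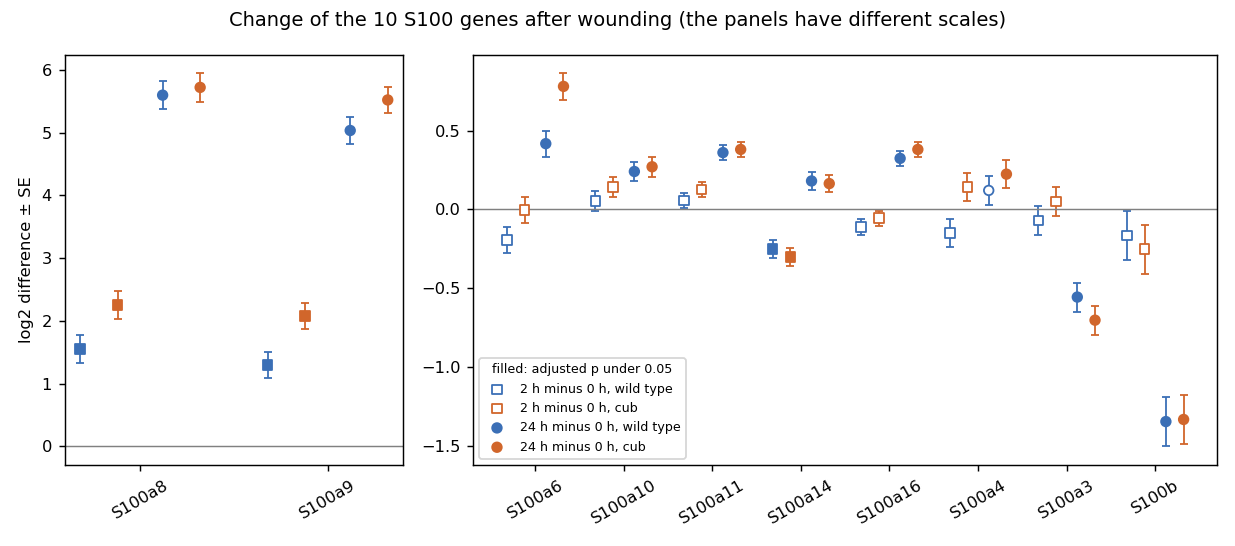
Log2 difference from unwounded ears for each of the 10 genes at 2 h (squares) and 24 h (circles) in wild type and cub, with bars for the standard error of the limma fit, filled where the adjusted p is under 0.05. The panels have different scales. S100a8 and S100a9 lie between 5.03 and 5.72 at 24 h, the other 8 between -1.35 and 0.78.

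The comparison of the genotypes, which the study's design names for each time, found few differences in these genes. In unwounded ears none of the 10 was called, where 5.25% of all genes were, 3.33% higher in cub and 1.93% lower. The largest was S100a6, -0.25 ± 0.08 in cub against wild type (adjusted p = 0.0825), called without wild type replicate 1 of 0 h (-0.37, adjusted p = 0.00684). At 15 min S100a14 alone was called, beside 3.45% of all genes, 1.57% higher in cub and 1.88% lower. Its wild type arrays read 10.57, 10.41 and 10.46 and its cub arrays 10.81 and 10.66, and cub was higher by 0.26 ± 0.06 (adjusted p = 0.0330). The call was lost when any of 4 arrays was left out: adjusted p was then 0.0905 (wild type replicate 2), 0.103 (wild type replicate 3), 0.126 (cub replicate 2) or 0.0717 (cub replicate 3). It was 0.166 with the compared arrays alone. Against its own unwounded ears, S100a14 at 15 min was at -0.22 ± 0.06 in wild type (adjusted p = 0.166) and -0.04 ± 0.06 in cub (adjusted p = 0.804). At 15 min 3 of 7 suprabasal keratinocyte markers tested of 8 were also higher in cub and none lower, Krt1 by 0.80 ± 0.13 (adjusted p = 0.00386), and the list's mean was at most 12.13 in wild type and at least 12.25 in cub. In unwounded ears, where S100a14 was not called (0.07 ± 0.06, adjusted p = 0.598), 4 of these markers were higher in cub, and the list's mean was at most 12.03 in wild type and at least 12.31 in cub. The part of these cells in the S100a14 difference was not tested.

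At 2 h none was called, where 4.41% of all genes were, 3.84% higher in cub and 0.577% lower, and S100a8 came nearest. All 3 cub arrays of S100a8 (8.06, 7.89 and 8.40) lay above 2 of the wild type arrays (7.24 and 6.93), and the third, replicate 1, read 7.90. The difference was 0.76 ± 0.23 with a 95% interval of 0.29 to 1.23 (unadjusted p = 0.00293, adjusted p = 0.0604). It passed without that replicate 1 (1.03, adjusted p = 0.0106) and with dim genes left out (0.76, adjusted p = 0.0468). For S100a9 the cub arrays all lay above the wild type arrays, by 0.62 ± 0.21 on average (95% interval 0.18 to 1.05, adjusted p = 0.107); the arrays of the 2 groups did not overlap for 20.9% of all genes. Cub minus wild type in the 2 h rise itself was 0.70 ± 0.32 for S100a8 (adjusted p = 0.460) and 0.78 ± 0.30 for S100a9 (adjusted p = 0.347), and neither passed. At the same time 7 of the 18 neutrophil markers tested were higher in cub and none lower, Mmp8 by 1.11 ± 0.18 (adjusted p = 0.00141), while Ly6g (0.22 ± 0.25) and Cxcr2 (0.34 ± 0.21) did not pass. Of 12 macrophage markers 8 were higher in cub at 2 h and none lower, and the list's mean ran from 7.97 to 8.58 in wild type and 8.79 to 9.01 in cub. Their part in the S100a8 and S100a9 values was not tested.

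At 24 h none of the 10 differed between genotypes by the test, where 5.68% of all genes did, 2.24% higher in cub and 3.44% lower. The interval for S100a8 was -0.29 to 0.65 around 0.18, and that for S100a9 -0.11 to 0.76 around 0.32. Averaged over the 4 times, 3 of the 10 were called, beside 18.3% of all genes, 9.71% higher in cub and 8.56% lower. S100a4 was lower in cub by -0.14 ± 0.05 (adjusted p = 0.0357), S100b lower by -0.26 ± 0.08 (adjusted p = 0.0312) and S100a14 higher by 0.10 ± 0.03 (adjusted p = 0.0213). S100b was lower in cub at each time, by -0.22 to -0.32, and S100a4 at 3 of the 4, since at 2 h it was 0.07 higher. The S100a14 call was lost without cub replicate 2 of 15 min (adjusted p = 0.0665). That of S100b was lost without any 1 of 9 arrays, most of all the same one (0.117), and otherwise wild type replicates 2 of 15 min, 3 of 2 h, 1 and 2 of 24 h and 3 of 0 h, and cub replicates 3 of 2 h, 1 of 24 h and 2 of 0 h (0.0503 to 0.0594). That of S100a4 was lost without any 1 of 10 arrays, namely wild type replicates 2 of 15 min, 1 and 2 of 2 h and 3 of 0 h, and cub replicates 2 and 3 of 15 min, 2 and 3 of 2 h, 1 of 24 h and 3 of 0 h (0.0516 to 0.0668). On this average 2 uncalled genes passed without a single wild type array, S100a6 without replicate 1 of 0 h (-0.11, adjusted p = 0.0319) and S100a9 without replicate 1 of 15 min (0.24, adjusted p = 0.0315). The genotype difference of the wounding change was called for none of the 10 at 15 min, 2 h or 24 h, where 0%, 0.13% and 1% of all genes were called. Of all genes the change was more positive in cub for 0.105% at 2 h and 0.256% at 24 h, and more negative for 0.0251% and 0.747%. At an unadjusted p under 0.05, limma's test counted S100a14 at 15 min, S100a4, S100a8 and S100a9 at 2 h and S100a6 at 24 h. The share of all genes at that looser threshold is not given here, so these genes cannot be set against the shares above.

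The array also carried other S100 genes. Of 10 listed, 7 were tested, and at 24 h 2 were higher and 1 lower in wild type and 1 and 1 in cub. The shares called over all genes were 42.8% in wild type, 20.5% higher and 22.4% lower, and 46% in cub, 21.1% higher and 24.9% lower. S100a7a, the mouse relative of psoriasin, rose from 5.87 ± 0.05 (n = 3) to 7.15 ± 0.37 (n = 3) in wild type (1.28 ± 0.13, adjusted p = 6.02e-08) and by 1.11 ± 0.13 in cub (adjusted p = 3.60e-07). S100a1, a member of muscle, fell by -0.36 ± 0.10 and -0.44 ± 0.10. S100a2 rose in wild type (0.29 ± 0.06, adjusted p = 0.000582) and was at 0.10 in cub (adjusted p = 0.218). Its wild type means were low, 4.74 unwounded and 5.03 at 24 h, under every array median. The genotype difference of its 24 h change did not pass (-0.19 ± 0.09, adjusted p = 0.430). None of these 7 was called between genotypes at any time. Of all genes, 5.25% were called at 0 h, 3.45% at 15 min, 4.41% at 2 h and 5.68% at 24 h.

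The S100 fused-type genes join an S100 domain to long repeats and build the surface epidermis and the hair sheath. Of 7 listed, 6 were tested, and at 24 h 2 rose and 2 fell in wild type and 1 rose and 2 fell in cub. Beside these counts, 42.8% of all genes were called in wild type and 46% in cub. Flg2, filaggrin 2 of the stratum corneum, fell by -1.27 ± 0.14 in wild type (adjusted p = 1.19e-07) and -1.63 ± 0.14 in cub (adjusted p = 2.13e-09), and Hrnr, hornerin, by -0.51 ± 0.11 and -0.59 ± 0.11. Rptn, repetin, rose by 0.77 ± 0.19 and 0.61 ± 0.19. Tchh, trichohyalin of the inner root sheath, rose at 24 h in wild type (0.61 ± 0.17), and at 15 min it was higher in cub than in wild type by 1.21 ± 0.19 (adjusted p = 0.00261).

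Among 12 receptor genes for extracellular S100 proteins, 6 rose and none fell at 24 h in wild type, where 42.8% of all genes were called (20.5% higher), and 7 rose and 1 fell in cub, where 46% were (21.1% higher). Cd14, the co-receptor of TLR4, rose from 6.16 ± 0.21 to 10.19 ± 0.16 (n = 3 each) in wild type, by 4.03 ± 0.16 (adjusted p = 3.12e-14), and by 4.50 ± 0.16 in cub (adjusted p = 3.21e-15). At 2 h Cd14 had risen by 1.28 ± 0.16 and 1.81 ± 0.16. Tlr4 rose by 0.30 ± 0.09 and 0.52 ± 0.09 at 24 h, and it was higher in cub than in wild type at 2 h (0.46 ± 0.09, adjusted p = 0.00300) and 24 h (0.48 ± 0.09, adjusted p = 0.00223). Mcam, a melanoma cell adhesion molecule that binds S100A8 and S100A9, rose by 0.70 ± 0.09 and 0.60 ± 0.09, and Cd33, a sialic acid-binding receptor of myeloid cells, by 0.61 ± 0.18 and 1.26 ± 0.18.

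Of 16 genes listed for partners and signalling of S100 proteins, 8 rose and 4 fell at 24 h in wild type (42.8% of all genes were called). In cub 9 rose and 5 fell (46%). Myd88, the adaptor of TLR4 signalling, rose at 2 h by 0.57 ± 0.06 and 0.88 ± 0.06 and at 24 h by 1.31 ± 0.06 (adjusted p = 1.66e-13) and 1.60 ± 0.06 (adjusted p = 4.80e-15). Tgm3, a transglutaminase of the cornified envelope, rose by 1.05 ± 0.11 and 1.39 ± 0.11. Plat, tissue plasminogen activator, which binds S100A10, rose by 1.11 ± 0.10 and 0.72 ± 0.10. Ahnak, a scaffold bound by S100A10 and annexin A2, fell in cub by -0.73 ± 0.05. In wild type, where it was not among the 4 largest differences, its mean was lower at 24 h too, 10.78 against 11.26 unwounded. Its wild type arrays ran from 10.71 to 10.84 at 24 h and from 11.22 to 11.29 unwounded. At 15 min none of the genes in the 4 S100-related lists passed against unwounded ears in either genotype. Only 0.0351% of all genes in wild type and 0.0251% in cub passed there.

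Genes whose values most resembled a member's over the 23 arrays were picked by Pearson's r among genes with a group mean of at least 6. For S100a8 these were Lcn2 (lipocalin 2, itself on the neutrophil list, r = 0.993), Lilrb4a (0.992) and Cd14 (0.990), and for S100a9 Lcn2 (0.992), Ccl3 (0.991) and Cxcl2 (0.991). S100a11 was most like Pfn1 (profilin 1, r = 0.983), S100a16 most like Ap3m1 (0.973), S100a6 most like Abracl (0.962) and S100a10 most like Rlim (0.912). For the falling members the closest were Wif1 (r = 0.973), an inhibitor of Wnt signalling, for S100b, and Emp2 (0.960) for S100a3. The likeness was lowest for S100a14, with Riox2 (r = 0.908), and S100a4, with Ly96 (0.879). Arrays share the time course, so these r values only describe the 23 arrays.

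Of the 10 genes 9 lie on chromosome 3 and S100b on chromosome 10. In the gene order of GRCm38.p6 the run on chromosome 3 holds 15 S100 genes and begins S100a1, S100a13, S100a14, S100a16, S100a3, S100a2, S100a4, S100a5, S100a6, S100a7a, S100a8 and S100a9, with no other coding gene between these. S100a11 and S100a10 adjoin each other beyond 54 other coding genes. Some neighbours had like changes at 24 h in wild type: S100a8 and S100a9 rose by 5.60 and 5.03, S100a14 and S100a16 by 0.18 and 0.32, and S100a11 and S100a10 by 0.36 and 0.24. Others did not: S100a3 fell by -0.56 beside S100a16, and S100a7a rose by 1.28 beside S100a8.

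**Figure D5:**
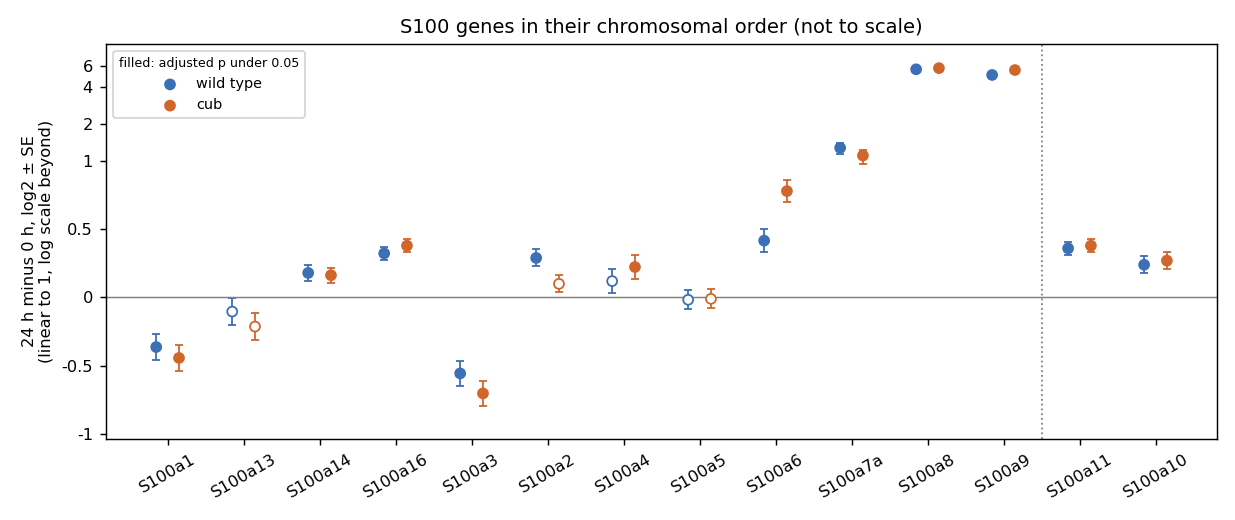
Log2 difference between 24 h and unwounded ears for the tested S100 genes of chromosome 3 in their chromosomal order (not to scale), for wild type and cub, with bars for the standard error and an axis that is linear up to 1 and logarithmic beyond. The dotted line marks the gap before S100a11. S100a8 and S100a9 are at 5.03 to 5.72 and S100a7a at 1.11 and 1.28, while S100a3, S100a1, S100a13 and S100a5 lie below 0, the last 2 without passing the test.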

How the data were processed

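Total RNA of ear pinna tissue was hybridised to Affymetrix Mouse Gene 1.0 ST arrays, 1 sample an array. The deposited log2 values are RMA values that the authors computed, with Expression Console 1.1 of Affymetrix named in the submitters' processing notes. No source used here gives the probes' genome build. There were 35556 rows, of which 21789 carry 1 gene symbol, 1621 several and 12146 none. After symbols were updated through the gene table, the highest-mean row stood for each of 19938 genes. No further normalization was applied.

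limma 3.58.1 in R 4.3.3 fitted 1 mean per group over all 23 arrays (15 residual degrees of freedom, prior 5.61) with eBayes and Benjamini-Hochberg adjustment over all genes, two-sided, threshold 0.05, for 16 comparisons. The authors name R/maanova for pairwise genotype comparisons at the same threshold. The fit was tested on simulated data. Replicate numbers did not pair the arrays over all groups: of 77 same-number correlations of deviations from group means (-0.447 to 0.410), 21 were over 0.1. Every such correlation was over 0.1 in 3 of 28 group pairs, all of them with the cub 15 min group of 2 arrays. The 7 alternatives were 2 other scalings, a filter on dim genes, other moderation, every row tested, only the compared arrays, and replicate blocks; each array was also left out in turn.

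All 10 members are reported. From the 4 other S100-related lists at most 4 genes past the threshold with the largest differences are named per comparison, with the genes most like each member, 3 for S100a8 and S100a9 and otherwise the first of 3. Of 12 marker lists, defining markers are named beside the result they bear on, chosen after their values were seen. Of 125 marker genes listed, 115 were tested. Members and lists were chosen with earlier results of these data known. Sequences were read with Python 3.11.15, and figures drawn with matplotlib 3.10.9.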

Additional observations from a re-analysis of the deposited data

How the results depend on the processing

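Of 47 comparisons in which an S100 gene was called, 37 kept the call in every alternative run and 10 lost it in at least 1; 10 uncalled ones passed in at least 1. The S100a8 and S100a9 calls at 2 h and 24 h, and the S100a3 and S100b calls at 24 h, were among those kept. Among the values called with all arrays or in an alternative, 1 changed sign: S100a4 at 24 h against 0 h in wild type, 0.12 with all arrays, was -0.015 without wild type 24 h replicate 1 and 0.23 without replicate 3. Using the compared arrays alone, the count of members called between genotypes at 15 min went from 1 to 0. With only genes whose highest group mean was at least 6, the count at 2 h went from 0 to 1, S100a8. When single arrays were left out, the counts between genotypes ran from 0 to 1 in unwounded ears, at 15 min and at 2 h, from 0 to 4 on average over the times, and from 0 to 1 for the genotype difference of the 24 h change. Causes of these moves were not tested beyond the loss of arrays or genes.

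With the replicate number as a block, which the arrays do not bear out as a pairing over all groups, 2 calls were lost: S100a4 on average between genotypes (-0.14, adjusted p = 0.0523) and S100a4 at 24 h in cub (0.22, adjusted p = 0.0603). It changed no other call. Quantile normalization added S100a16 at 2 h in wild type (-0.14, adjusted p = 0.0462), and trend and robust moderation added S100a11 at 2 h in cub (0.13, adjusted p = 0.0400). Cub at 15 min has 2 arrays, whose number limits the comparisons that use it.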
